A study of Arabidopsis thaliana with 36 samples.

Results

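Of the 22810 probe sets on the array, 4 stand for genes of defence-type proteins: the PR-1-type AT4G33720 (PR stands for pathogenesis-related), the thaumatin-like AT1G20030, the defensin-like AT2G43535, and JAL33 (AT3G16450), a jacalin-related lectin. Each was measured by 1 probe set that lists that gene alone, as 13513 probe sets of the array list a single gene. The genes were picked by name after their signals in roots taken after 2 days had been seen, so their levels at that time are a description without a test. Whether the earlier samples entered the choice is not recorded. All 4 passed the filter on dim probe sets, also on the 24 samples of 2 and 8 hours alone. Their mean signals over the 36 samples lay at percentiles 79.6, 47.4, 95.6 and 99.8 of all probe sets.

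PR-1 proteins are small secreted proteins of the cysteine-rich CAP superfamily, and some members of the family, PR-1 itself among them, are textbook markers of salicylic acid signalling in leaves. Thaumatin-like proteins form the PR-5 family and defensins are short peptides held by disulfide bridges, and in both families many members act against fungi. Jacalin-related lectins bind sugars, and in the mustard family several of them assemble with the myrosinase system that splits glucosinolates. Members of these families are also expressed in healthy roots.

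RNA was measured in roots of Arabidopsis thaliana, ecotype Columbia, in which each plant carried a pair of main roots on separate sides of a segmented plate, a split-root system that sets the supply in a root's own compartment against that of the rest of the plant. All plants had grown with 0.5 mM ammonium succinate, 0.1 mM KNO3 and 3 mM sucrose, had been kept on divided plates with ammonium succinate, and were 12 to 14 days old when they moved to 60 ml of medium with 0.3 mM sucrose. By sample title, Sp.KCl is the KCl side and Sp.NO3 the KNO3 side of split plates, C.KCl is roots with 5 mM KCl on both sides, and C.NO3 is roots with 5 mM KNO3 on both sides. Roots were taken 2 hours, 8 hours and 2 days into the treatment, which gives 12 groups of 3 biological repeats.

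The titles and the treatment labels of the KCl samples contradict each other: the treatment label of a sample titled as uniform KCl names a split plate, and that of a sample titled as split KCl names a uniform one. Groups follow the titles here, because the source names match these. Every comparison below that uses KCl roots rests on this. Values with the 2 KCl groups exchanged are given for the main differences of the genes named above and for related genes that passed a test. They are not given for, among others, the medians and counts of gene families, the cell type markers, the direct neighbours and the shares without overlap. Those results depend on the reading of the titles as well. Plants on split plates kept a nitrate supply, so only C.KCl roots belonged to plants without nitrate on either side.

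Array medians ranged from 194 to 222 after the authors' scaling, and samples of a group correlated at 0.972 to 0.986. The log2 ratio of 3′ over 5′ control probe sets, which grows with RNA degradation or short labelling products, had group means of 1.20 to 1.52 at 2 and 8 hours and 1.68 to 1.78 after 2 days. The root hair expansins EXPA7 and EXPA18 had summed signals with a further root marker, AT4G28100, of 3171 to 3873 on chloride and 2779 to 3413 on nitrate after 2 days, and 3 of the 16 root markers were measured. The markers did not all go the same way. Chloride minus nitrate was 0.23 for EXPA7, 0.36 for EXPA18 and -0.06 for AT4G28100 on uniform plates. On split plates it was 0.18, 0.24 and -0.16. EXPA7 averaged 1621 ± 140.4 in C.KCl and 1382 ± 61.0 in C.NO3 roots, and EXPA18 1449.9 ± 225 in C.KCl and 1139 ± 275 in C.NO3 roots. Whole roots were extracted, so fewer cells of a type and less RNA per cell cannot be told apart.

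AT4G33720 was close to the lower end of the scale in all early samples and spread widely after 2 days. Its signal lay between 69.0 and 162 in the 12 samples at 2 hours and between 59.4 and 143 in the 12 samples at 8 hours. After 2 days the C.KCl roots of repeats 1, 2 and 3 had signals of 8082, 1788 and 7384, against 198, 62.5 and 62.0 in C.NO3 roots. Each C.KCl sample was above each C.NO3 sample, and the C.NO3 samples of repeats 2 and 3 stayed within the range of the earlier times. The fitted difference was 5.44 ± 0.72 (SE) on the log2(signal + 16) scale. Here and below, this SE pools the spread of all 36 samples. The narrow early groups are part of it, so it understates the spread of the 2-day samples alone.

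On split plates the chloride side of AT4G33720 gave 1461, 187 and 3670.5, against 487, 66.9 and 1320.0 on the nitrate side. The ranges of both sides overlapped, and the fitted difference was 1.44 ± 0.72, with the same pooled SE. It was 0.34 without repeat 2 and 2.34 without repeat 3 of Sp.NO3, and 2.61 without repeat 2 and 0.52 without repeat 3 of Sp.KCl. Within each repeat number, however, the chloride side was above the nitrate side by nearly the same ratio, 3.00, 2.80 and 2.78. The corresponding ratios of C.KCl over C.NO3 were 40.8, 28.6 and 119. Repeat 2 was the lowest of its group in Sp.KCl, C.KCl and Sp.NO3. The titles number the repeats without tying a number to plants, and over all probe sets same-numbered samples of the split comparison did not all deviate together at this time.

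The order of the group means of AT4G33720 after 2 days was C.KCl at 5751 ± 3450 (SD, n = 3 each), Sp.KCl at 1773 ± 1762, Sp.NO3 at 625 ± 638 and C.NO3 at 108 ± 78.5. Neighbours in that order overlapped in each case, and C.KCl roots overlapped neither of the nitrate groups. The other 8 groups lay between 87.4 and 131. The Sp.KCl roots differed from C.KCl roots by -2.20 ± 0.72 (-1.03 without repeat 2 of Sp.KCl), and the Sp.NO3 roots from C.NO3 roots by 1.80 ± 0.72 (2.90 without repeat 2 and 0.899 without repeat 3 of Sp.NO3). With the KCl groups exchanged, the chloride minus nitrate differences were 3.24 on uniform and 3.64 on split plates, and the split minus uniform difference on the chloride side was 2.20.

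**Figure D1:**
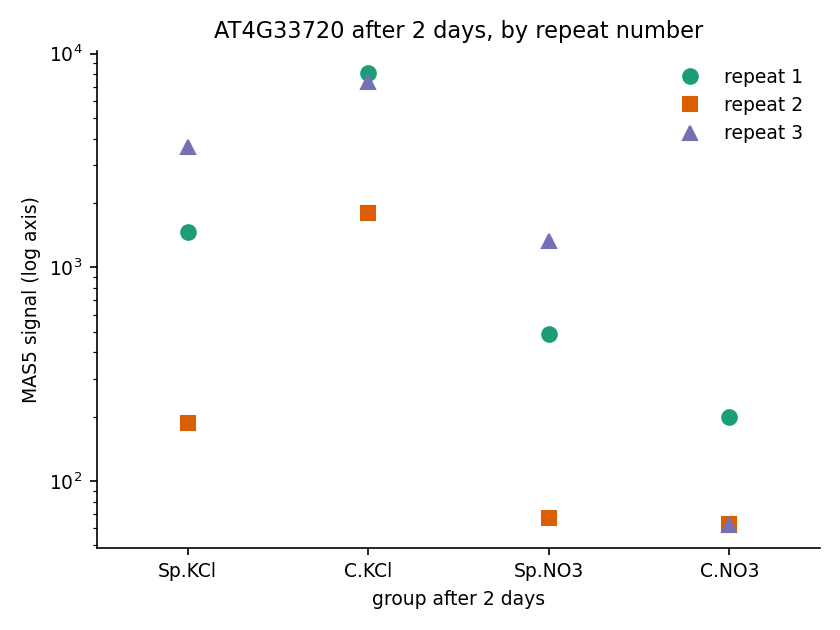
MAS5 signal of AT4G33720 (log axis) in each of the 4 groups after 2 days, 1 point per sample, with repeats 1, 2 and 3 as circles, squares and triangles. The C.KCl points lie at 1788 and above, the C.NO3 points at 198 and below, and repeat 2 is lowest in the first 3 groups.

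AT1G20030 was lowest in the nitrate side of split plates after 2 days and highest in all 4 groups at 8 hours. After 2 days Sp.KCl roots had signals of 126, 164 and 139, against 33.1, 60.8 and 82.4 in Sp.NO3 roots. The ranges did not overlap, and the fitted difference was 1.14 ± 0.24. On uniform plates C.KCl roots had 127, 186 and 138, against 121, 122 and 98.4 in C.NO3 roots, and here too each chloride sample was above each nitrate sample, by a fitted 0.35 ± 0.24, which was 0.19 without repeat 2 of C.KCl. The split and uniform chloride groups were alike in range, with a difference of -0.05 ± 0.24 (95% interval of the fit -0.55 to 0.44). This interval is a description and no test that the groups are alike, because AT1G20030 was chosen on these samples. The Sp.NO3 group was the one that stood apart, at -0.85 ± 0.24 from C.NO3. Its mean signal of 58.8 was below the 72.2 used as the cut for dim probe sets. This difference ran from -1.08 to -0.57 with 1 sample left out and from -1.03 to -0.55 over the other alternatives. The 1.14 of split plates ran from 0.86 to 1.37 and from 0.77 to 1.35 in these runs. Since the Sp.KCl and C.KCl levels were close, an exchange of these groups left this gene's differences at 0.29 on uniform and 1.19 on split plates.

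AT2G43535 and JAL33 showed the opposite order on uniform plates. AT2G43535 had signals of 794, 544 and 589 in C.KCl roots, against 1801, 1379.5 and 1349 in C.NO3 roots, a difference of -1.22 ± 0.17. On split plates it had 1581, 1920 and 1193 in Sp.KCl roots, against 1040, 1439 and 968 in Sp.NO3 roots, a difference of 0.43 ± 0.17 with overlapping ranges (0.28 without repeat 2 of Sp.KCl). Its C.KCl group was the lowest of all 12 groups, and the chloride side of split plates was above it by 1.26 ± 0.17 with no overlap. The Sp.NO3 roots differed from C.NO3 roots by -0.40 ± 0.17, with overlapping ranges.

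JAL33, among the brightest probe sets on the array, had signals of 4366, 5219 and 5633 in C.KCl roots, against 8804, 7825 and 8002 in C.NO3 roots, a difference of -0.70 ± 0.12. In Sp.KCl roots it had 10580.4, 9627 and 9383, against 6146, 8838 and 5559 in Sp.NO3 roots, a difference of 0.55 ± 0.12. No sample overlapped in either comparison, and the sign was opposite on the 2 kinds of plate. The chloride side of split plates exceeded C.KCl roots by 0.96 ± 0.12, again with no overlap. The Sp.NO3 group of JAL33 spread from 5559 to 8838 and overlapped C.NO3, at a difference of -0.29 ± 0.12 (-0.49 without repeat 2 and -0.15 without repeat 3 of Sp.NO3).

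After 2 days AT4G33720 and AT1G20030 had higher means on chloride than on nitrate on both kinds of plate. AT2G43535 and JAL33 had their lowest mean of all 12 groups in C.KCl roots after 2 days, the plants without nitrate on either side, so a description as genes of high level in nitrogen-deprived roots does not hold for them there. Their means were higher on chloride on split plates. The order of these 2 genes depends on the reading of the titles, because with the KCl groups exchanged the chloride minus nitrate difference was 0.037 on uniform and -0.82 on split plates for AT2G43535, and 0.26 on uniform and -0.41 on split plates for JAL33.

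**Figure D2:**
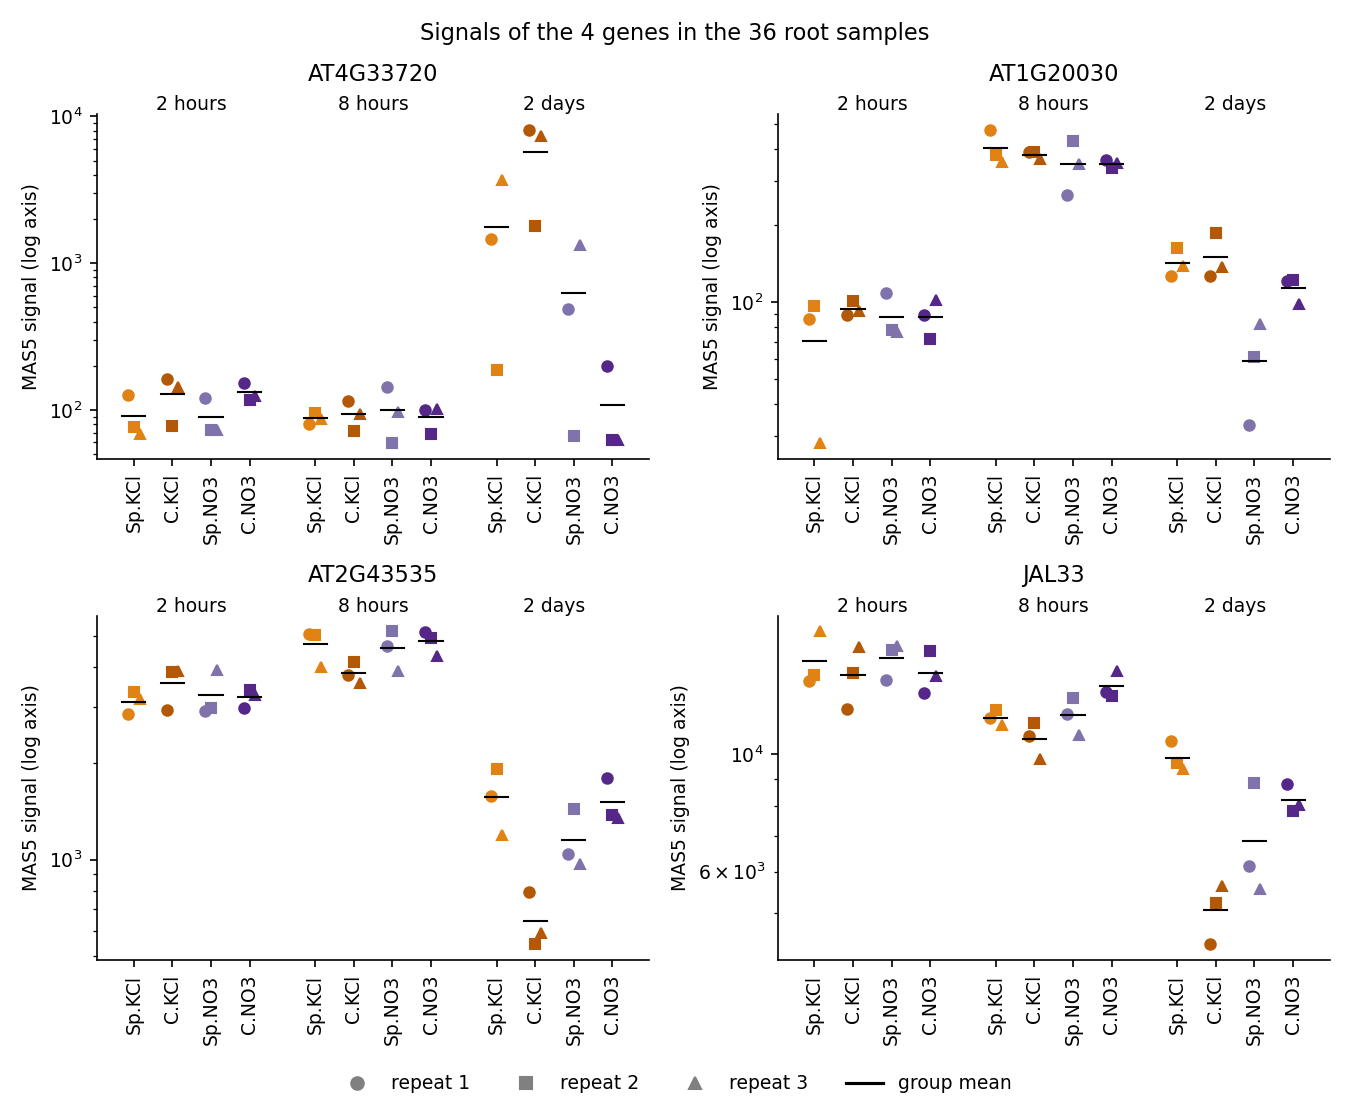
MAS5 signals (log axes, 1 panel per gene) of all 36 samples by group and time, with the repeats as circles, squares and triangles and the group mean as a line. AT4G33720 leaves its early range of 59.4 to 162 only after 2 days, AT1G20030 peaks at 8 hours in each group, and the C.KCl groups of AT2G43535 and JAL33 after 2 days are the lowest of their panels.

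Groups without overlap are common among all probe sets at this time. The signals of C.KCl and C.NO3 did not overlap for 4 of the 4 genes, against 21.8% of the 15922 probe sets tested. On split plates 2 of 4 genes did not overlap, AT1G20030 and JAL33, against 15.3%, and between the chloride sides 2 of 4, AT2G43535 and JAL33, against 16.9%. Since the genes were chosen on these samples, nothing is read from these counts, and by limma's test at an adjusted p of 0.05, 2.54%, 0.798%, 0.942% and 0.00628% of all probe sets passed in the uniform, split, chloride-side and nitrate-side comparisons. These comparisons share their groups in pairs, so they are not independent of each other.

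The measured shoot markers had lower signals on uniform chloride at this time. RCA, the activase of Rubisco, and the light-harvesting proteins LHCB4.1 and LHCB4.2 were the 3 measured of 15 markers listed, and their summed signal was 345 to 471 in C.KCl roots, against 684 to 851 in C.NO3 roots. It was 515 to 600.3 in Sp.KCl roots, against 591 to 722 in Sp.NO3 roots. RCA averaged 222 ± 23.1 in C.KCl and 369 ± 24.1 in C.NO3 roots, and LHCB4.2 59.3 ± 13.6 in C.KCl and 147 ± 32.7 in C.NO3 roots. None of the 3 passed the test in any salt or plate comparison and none was at 0. Their part in the levels of the 4 genes was not tested.

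The salt and plate comparisons at 2 and 8 hours were tested with the spread of each gene fitted over all 36 samples, those of 2 days included. Fits of only the 6 samples compared, which leave out the 2-day samples, gave no call for the 4 genes. At 2 hours these fits called 8 probe sets for C.KCl against C.NO3, where the main fit called 334. They called 0 for Sp.KCl against Sp.NO3, against 23, and 1 for Sp.KCl against C.KCl, against 54. Fits that call so few probe sets cannot decide whether the 2-day samples hid a call at 2 hours. At 8 hours these fits called 34 for Sp.KCl against Sp.NO3, against 39. In the main fit none of the 4 genes passed in any of these 8 comparisons. That is 0 of 32 limma tests with Benjamini-Hochberg adjustment, and 1 had an unadjusted p under 0.05. The share of all probe sets that passed was 2.1% for C.KCl against C.NO3 at 2 hours, 0.144% for Sp.KCl against Sp.NO3, 0.339% for Sp.KCl against C.KCl and 0% for Sp.NO3 against C.NO3. At 8 hours it was 0.389% for C.KCl against C.NO3, 0.245% for Sp.KCl against Sp.NO3, and 0% on both the chloride and the nitrate side for split against uniform plates. Where the count was 0, 249, 327 and 1189 probe sets had an unadjusted p under 0.05 (nitrate side at 2 hours, chloride side and nitrate side at 8 hours), and the methods' analysis of variance with Tukey's test called 4, 5 and 36. The lowest adjusted p of the 4 genes was 0.355. A count of 0 of 4 is close to these shares.

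The fitted precision of these null results differed between the genes. The SE of a gene is the same at each time, because its spread was fitted over all 36 samples. For AT4G33720 it includes the wide spread of the 2-day samples. Its early intervals therefore do not measure the spread of the early samples alone. For AT4G33720 the difference between C.KCl and C.NO3 roots was -0.08 ± 0.72 at 2 hours, with a 95% interval from -1.55 to 1.39, and 0.05 ± 0.72 at 8 hours, from -1.42 to 1.52. Both intervals end below the 5.44 of 2 days, but AT4G33720 was chosen on the samples of that time, so nothing is read from this. For JAL33 the same difference was -0.02 ± 0.12 at 2 hours, from -0.27 to 0.23 and the interval was narrower. The plate-by-salt interaction passed for none of the genes, with adjusted p-values from 0.795 to 0.9999 at 2 hours and from 0.862 to 0.995 at 8 hours by limma.

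At 8 hours the signals of the uniform plates did not overlap for 3 of the 4 genes, against 19.4% of all probe sets, and none passed the test. This was the highest count of the 8 early comparisons, which gave 4 cases without overlap in 32. The other case was JAL33 on the nitrate side at 8 hours, where 2404 of 15922 probe sets did not overlap. The remaining comparisons had none among the 4 genes, where 690 to 2794 probe sets did not overlap. JAL33 had 10826, 11476 and 9803 in C.KCl roots, against 13123, 12920 and 14359.7 in C.NO3 roots. Its difference was -0.33 ± 0.12 (adjusted p = 0.355, unadjusted p = 0.0120 by limma). AT2G43535 had 3768, 4141 and 3548 in C.KCl roots, against 5147, 4928 and 4308 in C.NO3 roots. Its difference of -0.33 ± 0.17 had an adjusted p of 0.563 by limma. AT1G20030 had 387.3, 387 and 363 in C.KCl roots, against 360.2, 335 and 350.7 in C.NO3 roots, at 0.12 ± 0.24. With the KCl groups exchanged the difference was -0.20 for JAL33 and -0.036 for AT2G43535.

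**Figure D3:**
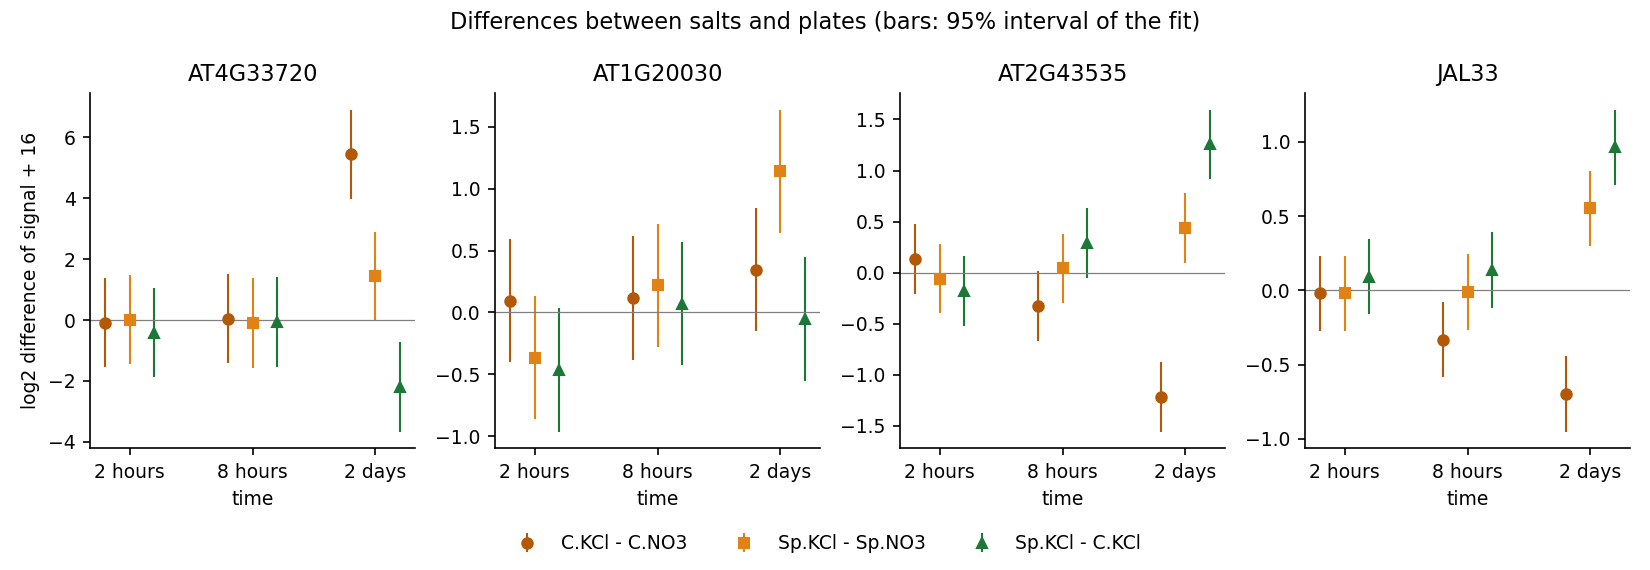
Log2 differences of signal + 16 by time, 1 panel per gene with its own vertical axis, for C.KCl minus C.NO3 (circles), Sp.KCl minus Sp.NO3 (squares) and Sp.KCl minus C.KCl (triangles), with bars for the 95% interval of the fit. Intervals at 2 hours include 0 for each gene, and after 2 days the circles and squares of AT2G43535 and JAL33 lie on opposite sides of 0. Bars after 2 days are a description and no test, because the genes were chosen on these samples.

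Between 2 and 8 hours AT1G20030 rose in each of the 4 groups, and these calls were kept with 1 or 64 added before the log, under quantile normalization and without any 1 sample. An exchange of the KCl groups only swaps their values here, so AT1G20030 had to keep its calls. At 2 hours it had signals of 85.9, 96.9 and 28.1 in Sp.KCl, 89.3, 101 and 92.3 in C.KCl, 109, 77.9 and 76.7 in Sp.NO3, and 89.1, 72.1 and 102 in C.NO3 roots. Its 8-hour signals were 473, 377 and 355 in Sp.KCl, 387.3, 387 and 363 in C.KCl, 263, 430.2 and 347 in Sp.NO3, and 360.2, 335 and 350.7 in C.NO3 roots. All 12 samples at 8 hours were above all 12 samples at 2 hours, whose highest was 109, and above the 12 samples of 2 days, which ranged from 33.1 to 186. The log2 difference between 8 and 2 hours was 2.38 ± 0.24 in Sp.KCl, 1.84 ± 0.24 in C.KCl, 1.79 ± 0.24 in Sp.NO3 and 1.82 ± 0.24 in C.NO3. The largest of the 4 adjusted p-values was 3.95e-06 by limma. The Sp.KCl value includes the sample at 28.1 and was 1.95 without it.

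AT2G43535 rose by less and not in every group. It had 5068, 5028 and 3981 in Sp.KCl roots at 8 hours, against 2839.7, 3326 and 3167 at 2 hours, and the difference was 0.58 ± 0.17 (adjusted p = 0.0167 by limma). In Sp.NO3 roots it had 4639, 5159 and 3883 at 8 hours, against 2905, 2978 and 3907 at 2 hours, with a difference of 0.48 ± 0.17 (adjusted p = 0.0434 by limma). C.NO3 roots had 5147, 4928 and 4308 at 8 hours, against 2969.9, 3392 and 3270.5 at 2 hours, with 0.57 ± 0.17 (adjusted p = 0.0207 by limma). In C.KCl roots, at 3768, 4141 and 3548 against 2937, 3844 and 3870.0, the difference was 0.11 ± 0.17 and did not pass (adjusted p = 0.698 by limma). Whether the groups differ in this change over time was not tested. Each of the 3 calls was lost when some samples were left out singly. This held for repeat 1 at 2 hours and repeats 1 and 2 at 8 hours in Sp.KCl and C.NO3 roots, and for repeats 1 and 2 at either time in Sp.NO3 roots, with adjusted p-values of at most 0.175 by limma.

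JAL33 fell between 2 and 8 hours in 2 groups. C.KCl roots had 12164, 14236 and 15952 at 2 hours, and the 8-hour difference was -0.39 ± 0.12 (adjusted p = 0.0285 by limma). Sp.NO3 roots had 11921, 12761 and 10862 at 8 hours, against 13837, 15732 and 16023 at 2 hours, and the difference was -0.36 ± 0.12 (adjusted p = 0.0452 by limma). Sp.KCl roots, with 11711, 12157 and 11344 at 8 hours against 13797, 14159 and 17102 at 2 hours, gave -0.35 ± 0.12 and missed the threshold (adjusted p = 0.0576 by limma). C.NO3 roots had 13069, 15696 and 14057 at 2 hours and a difference of -0.08 ± 0.12 (adjusted p = 0.740 by limma). Under quantile normalization both calls were lost, at -0.21 in C.KCl and -0.27 in Sp.NO3 roots. Each was also lost without repeat 2 or 3 at 2 hours or repeat 1 or 3 at 8 hours of its group, with adjusted p-values of at most 0.159 by limma.

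AT4G33720 did not pass between 2 and 8 hours in any group, with differences from -0.49 to 0.11 ± 0.72. This SE again includes the spread of its 2-day samples. In C.NO3 roots its signals lay between 68.8 and 102 at 8 hours and between 117 and 153 at 2 hours, without overlap. In that comparison 4427 of 15922 probe sets did not overlap. In all, 2 of 4 genes passed in C.KCl, against 15.9% of all probe sets, 2 of 4 in Sp.KCl, against 14.1%, 2 of 4 in C.NO3, against 12.4%, and 3 of 4 in Sp.NO3, against 16.7%. Leaving out 1 sample moved the counts behind these shares by over 1.5 times in each group: 1658 in place of 2535 in C.KCl (without repeat 2 at 2 hours), 1336 and 1456 in place of 2247 in Sp.KCl (without repeat 2 at 2 hours or repeat 1 at 8 hours), 1134 and 1295 in place of 1976 in C.NO3 (without repeat 1 at 2 hours or repeat 2 at 8 hours) and 1728 in place of 2653 in Sp.NO3 (without repeat 1 at 8 hours). After 2 days AT2G43535 and JAL33 were at their lowest in every group, and the ratio of 3′ over 5′ controls was at its highest there. Its part in these levels was not tested.

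Across the 36 samples AT2G43535 and JAL33 followed each other, with a Pearson correlation of 0.852 of log2 signals (Spearman 0.605), and 0.847 over the 12 samples of 2 days. For AT4G33720 the Pearson value was -0.780 with AT2G43535 (Spearman -0.527) and -0.721 with JAL33 (Spearman -0.387), so the ranks were less closely tied than the log2 levels. For AT1G20030 it was 0.442 with AT2G43535 (Spearman 0.504), -0.159 with AT4G33720 (Spearman -0.0821) and 0.0386 with JAL33 (Spearman -0.222). The points share the 12 groups and the time course, so these values are a description.

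The genes most like each of the 4 over the 36 samples differed in kind. For AT4G33720 they were the pyruvate kinase family member AT5G56350 (Pearson 0.768), the phosphoglycerate mutase family member AT1G22170 (0.762), AT4G14650 (0.761), the asparaginase gene ASPGB1 (0.758) and AT3G03890 (0.742). None came near its range: ASPGB1, the one with the widest ratio between these groups, averaged 2507 in C.KCl and 1309 in C.NO3 roots after 2 days. For AT1G20030 the nearest were AT2G38465 (0.906), the cold-regulated and clock-controlled COR27 (0.894), AT4G16146 (0.876), AT5G39410 (0.872) and AT3G46630 (0.869). Those of AT2G43535 were AT4G29270 (0.957), AT2G16005 (0.951), AT4G23670 (0.943), AT2G04795 (0.939) and the jacalin lectin JAL22 (0.931). JAL33 was followed most closely by the methionine sulfoxide reductase MSRB5 (0.913), AT1G48440 (0.909), AT5G38020 (0.909), AT5G60680 (0.8996) and AT5G23830 (0.899).

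The other tested genes of these families were 11 PR-1 and CAP genes, 13 thaumatin-like genes, 6 defensins and trypsin inhibitors and 13 jacalin lectins. Of these, 4 passed in at least 1 salt or plate comparison, and each passed in 1. The share of all probe sets that passed in at least 1 was not computed. Within single comparisons it ran from 0% to 2.54%, and nothing is read from the count of 4. Of the other PR-1 and CAP genes 11 were tested, and none passed between C.KCl and C.NO3 roots after 2 days. Their median difference was -0.07, with 5 above and 6 below 0, against a median of -0.01 over all probe sets. AT2G19970 had 904, 1146 and 907 in Sp.KCl roots, against 1678, 2034 and 1577 in Sp.NO3 roots, and was lower on the chloride side by -0.83 ± 0.21 (adjusted p = 0.0444 by limma). This call was lost in 5 of 6 fits that left out 1 sample, with adjusted p-values of at most 0.279, and without the filter on dim probe sets. The family members AT1G50050 and AT1G50060 averaged 65.3 ± 18.7 and 1167 ± 156 in C.KCl roots, against 115 ± 33.1 and 1452 ± 123 in C.NO3 roots (SD, n = 3 each), and did not pass.

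The direct neighbours of AT4G33720 on chromosome 4, AT4G33710 and AT4G33730, did not share its levels. After 2 days AT4G33710, which did not reach the filter, averaged 43.3 ± 7.31 in C.KCl and 25.8 ± 19.0 in C.NO3 roots. AT4G33730, of the same family, averaged 307 ± 77.1 in C.KCl and 213 ± 53.9 in C.NO3 roots.

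Among 13 other thaumatin-like genes, none passed after 2 days, and the median difference between C.KCl and C.NO3 roots was -0.11, with 5 above and 8 below 0. ATLP-1 averaged 838 ± 175 in C.KCl and 1099.6 ± 109 in C.NO3 roots, and AT1G70250 92.8 ± 4.50 in C.KCl and 83.1 ± 18.9 in C.NO3 roots. AT4G36010 was lower in C.KCl than in C.NO3 roots at 2 hours by -0.70 ± 0.18 (adjusted p = 0.0338 by limma), a time at which AT1G20030 did not pass. The call was lost without C.KCl repeat 2 or C.NO3 repeat 1 or 3, with adjusted p-values of at most 0.214. With the KCl groups exchanged the difference was -0.79, at an adjusted p of 0.0523 by limma. The ratio of 3′ over 5′ controls was higher in C.KCl roots at that time, at 1.52 ± 0.0938, against 1.22 ± 0.122 in C.NO3 roots, and its part in this call was not tested. Of 6 other defensins and trypsin inhibitors none passed in any salt or plate comparison. After 2 days 5 of the 6 were lower in C.KCl than in C.NO3 roots, as AT2G43535 was, with a median of -0.25, against -0.01 over all probe sets. The share of all probe sets below 0 was not computed. The lowest of these differences were -0.86 for AT2G43530 and -0.44 for PDF2.1. The means of both genes lay below the 72.2 used as the cut for dim probe sets in all groups of that time. Both also enter the counts that follow, so these counts rest partly on dim signals. Between Sp.KCl and C.KCl roots 5 of the 6 were higher, with a median of 0.35 against -0.02 over all probe sets. Both comparisons share the C.KCl samples, and an exchange of the KCl groups reverses the sign of the Sp.KCl minus C.KCl differences. On split plates 4 of the 6 were lower on the chloride side, with a median of -0.03, where AT2G43535 was higher by 0.43. Between Sp.NO3 and C.NO3 roots 3 lay above and 3 below 0. LCR69, a plant defensin, averaged 1799 ± 545 in C.KCl and 2162 ± 83.9 in C.NO3 roots, and PDF2.1, another defensin, ranged from 16.5 to 29.9 in C.KCl and from 32.5 to 52.5 in C.NO3 roots. AT2G43530, the gene next to AT2G43535, had a group mean of 11.8 ± 7.84 in C.KCl and 34.6 ± 14.7 in C.NO3 roots, close to the floor of the scale.

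Of 13 other jacalin lectins, 2 passed as lower in C.KCl than in C.NO3 roots after 2 days and none as higher, where 212 of all 15922 probe sets passed as lower. The 13 differences ran from -1.47 to 0.65, with 5 above and 8 below 0 and a median of -0.18. AT5G35940 had 108, 135 and 124 in C.KCl roots, against 379.9, 334 and 385 in C.NO3 roots, a difference of -1.47 ± 0.20 (adjusted p = 1.58e-05 by limma). JAL22 had 1562, 1419.5 and 2064 in C.KCl roots, against 3223, 2521 and 2384 in C.NO3 roots, a difference of -0.69 ± 0.18 (adjusted p = 0.0281 by limma), and its call was lost without repeat 1 or 2 of either group, with adjusted p-values of at most 0.199. With the KCl groups exchanged AT5G35940 differed by -0.84 (adjusted p = 0.0525 by limma) and JAL22 by -0.026 (adjusted p = 0.984 by limma). AT1G19715 averaged 286 ± 83.0 in C.KCl and 256 ± 84.1 in C.NO3 roots, and AT1G33790 33.2 ± 22.1 in C.KCl and 32.4 ± 18.7 in C.NO3 roots. JAL34, next to JAL33 on chromosome 3, averaged 11953 ± 765 in C.KCl and 14425 ± 446 in C.NO3 roots and did not pass. It averaged 13641 ± 849 in Sp.KCl and 13516 ± 357 in Sp.NO3 roots.

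**Figure D4:**
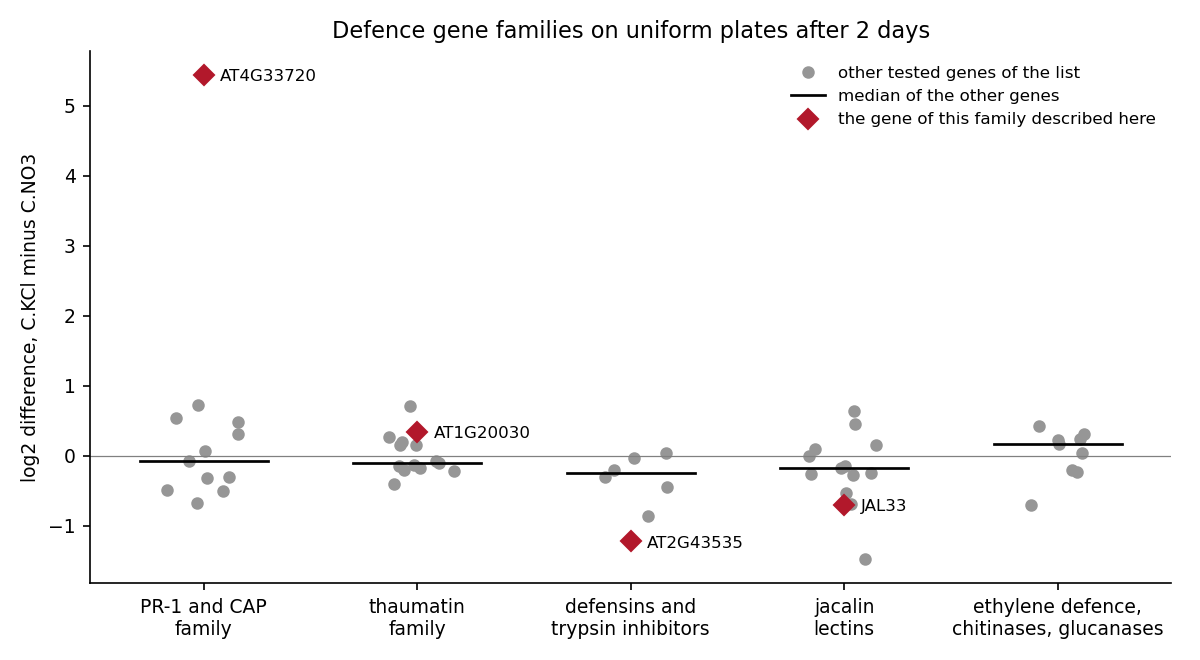
Log2 difference of C.KCl minus C.NO3 roots after 2 days for the tested genes of 5 defence lists, 1 point per gene, with the median of the other genes as a line and the 4 genes described here as diamonds. AT4G33720 lies at 5.44 while the other PR-1 and CAP genes lie around a median of -0.07, and JAL33 lies among other jacalin lectins with a median of -0.18.

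Other defence markers were measured in small numbers. Of 9 genes of ethylene-type defence, chitinases and glucanases, 1 passed after 2 days: the chitinase AT2G43610 was lower in C.KCl roots, at 2916, 3683 and 3350.3, than in C.NO3 roots, at 5339, 5702 and 5095 (-0.70 ± 0.15, adjusted p = 0.00435 by limma). The chitinase AT4G01700 passed at 2 hours only, at -0.55 ± 0.15 (adjusted p = 0.0421 by limma). The chitinases AT1G02360 and CHI averaged 2089.7 ± 92.3 and 474 ± 75.1 in C.KCl roots after 2 days, against 1851 ± 185 and 399 ± 70.7 in C.NO3 roots. GRX480, a glutaredoxin of salicylic acid signalling, averaged 438 ± 58.4 in C.KCl and 291 ± 30.4 in C.NO3 roots after 2 days, and SAG101, a partner of EDS1 in immunity, between 81.4 and 123 in C.KCl and between 94.8 and 104 in C.NO3 roots. These 2 were the measured members of a salicylic acid list of 23, and neither passed. None of the 3 measured genes of pattern-triggered immunity passed. BIK1 averaged 694 ± 163 in C.KCl and 704 ± 26.3 in C.NO3 roots, WRKY22 92.8 ± 7.67 in C.KCl and 99.9 ± 10.8 in C.NO3 roots, and of 24 jasmonate genes 0 were named alone by a probe set in the annotation used here. Of 3 autophagy genes measured from a list for nitrogen starvation and senescence, ATG8B was higher in C.KCl roots after 2 days, at 437, 355 and 431, than in C.NO3 roots, at 224, 294 and 285 (0.58 ± 0.14, adjusted p = 0.0165 by limma). The related ATG8C and APG8A averaged 1051 ± 19.5 and 3720.2 ± 187 in C.KCl roots, against 942 ± 84.0 and 3128 ± 401 in C.NO3 roots, and did not pass. With the KCl groups exchanged the difference was -0.28 for AT2G43610, -0.23 for AT4G01700 and 0.15 for ATG8B, none of which passed, and AT2G19970 kept its call at -1.21.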

How the data were processed

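Root RNA of 36 samples was hybridised to single-colour Affymetrix arrays, 1 per sample. The authors deposited linear MAS5 signals (unit: intensity), and the submitters' processing notes name MAS5. Read from the values, each array was scaled to a mean of 500 after trimming 2% at either end. Further upstream steps were not given in the sources used here. Precision is limited by the number of arrays, 3 per group.

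From these, 64 control probe sets were left out, 16 was added before log2, and probe sets with a mean signal below the 30th percentile (72.2) were dropped, which left 15922. In R 4.3.3, limma 3.58.1 fitted 12 group means to all 36 arrays, with eBayes and an intensity trend (24 residual and a median of 7.05 prior degrees of freedom). P-values were two-sided and adjusted by Benjamini-Hochberg over 15922 probe sets within each comparison, and the threshold was 0.05. Differences after 2 days of the 4 genes are given without p.

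The genes and lists were chosen with earlier results of these data known. The text names the 4 genes, per list up to 3 members past the threshold and 2 others by locus order, and the 5 probe sets of highest correlation with each gene. Direct neighbours and the remaining measured cell type markers are named beside them. Genes were named from the platform annotation, and locus tags from RefSeq (TAIR10.1) were found for 13436 of the 13513 probe sets with 1 gene. No sequences are shown.

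For same-numbered samples, deviations from the group means were correlated. Every pair exceeded 0.1 for the uniform comparison at each time, for the split and chloride-side comparisons at 2 and 8 hours and for the nitrate side at 2 hours, and these count as paired. The main fit had no term for the repeat number, so its p-values and shares do not use this pairing. Only the replicate block within time, an alternative for the salt and plate comparisons, does. Alternatives were the exchange of the KCl groups, 1 or 64 added before the log, no filter, quantile normalization, a replicate block within time, only the 6 samples compared in the fit, the methods' analysis of variance (p under 0.001) with Tukey's test, and leaving out each sample. For 8 minus 2 hours only the exchange, the added constants, quantile normalization and the left-out samples were run. The methods' q-value step was not run.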

Additional observations from a re-analysis of the deposited data

Results flagged for a closer look

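After 2 days the salt difference of AT2G43535 had opposite signs on the 2 kinds of plate. Chloride minus nitrate was -1.22 on uniform plates and 0.43 on split plates. Split minus uniform was 1.26 on the chloride side and -0.40 on the nitrate side. For JAL33 chloride minus nitrate was -0.70 on uniform plates and 0.55 on split plates. In each of these pairs of comparisons, every sample of the first-named group lay on 1 side of the mean of its counterpart in the one comparison and on the opposite side in the other. The differences between the paired comparisons were not tested, because the genes were chosen on these samples, and each changes when the KCl groups are exchanged.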

How the results depend on the processing

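With the C.KCl and Sp.KCl groups exchanged, the 2-day chloride minus nitrate differences on uniform and split plates were 3.24 and 3.64 for AT4G33720, 0.037 and -0.82 for AT2G43535, and 0.26 and -0.41 for JAL33, and split minus uniform on the chloride side was 2.20, -1.26 and -0.96 for these genes. For 8 minus 2 hours the exchange gave 0.58 in C.KCl and 0.11 in Sp.KCl for AT2G43535, and -0.35 in C.KCl and -0.39 in Sp.KCl for JAL33, which moves each call to the other group. Quantile normalization gave JAL33 -0.21 in C.KCl (adjusted p = 0.230 by limma) and -0.27 in Sp.NO3 (adjusted p = 0.109 by limma). Leaving out 1 sample at a time, 8 minus 2 hours ran from 0.52 to 0.70 in Sp.KCl, 0.39 to 0.62 in Sp.NO3 and 0.52 to 0.65 in C.NO3 for AT2G43535, with each call lost in some runs. For JAL33 it ran from -0.41 to -0.25 in Sp.KCl, which passed in 1 run, and from -0.50 to -0.30 in C.KCl and -0.42 to -0.30 in Sp.NO3, whose calls were lost in some. The 2-day differences of AT4G33720 ran from 5.06 to 6.14 on uniform plates, from 0.34 to 2.61 on split plates, from -3.12 to -1.03 on the chloride side and from 0.899 to 2.90 on the nitrate side. The replicate block, the missing filter, the fit of 6 samples and the methods' test were not run on 8 minus 2 hours. They brought none of the 4 genes past the threshold in the salt and plate comparisons at 2 and 8 hours, and adding 1 or 64 before the log changed no call of these genes. Among values that never passed, the sign changed in 56 of 440 runs at 2 and 8 hours, and among 2-day values in 10 of 220.

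With the replicate block within time none of the 4 genes passed at 2 or 8 hours, and the lowest adjusted p was 0.138 by limma (JAL33, uniform plates, 8 hours). The block moved the probe sets called between C.KCl and C.NO3 to 1171, against 334 without it, at 2 hours, and to 296, against 62, at 8 hours and 891, against 405, after 2 days. Over the other alternatives the lowest counts were 8, 49 and 61 at these times. Leaving out 1 sample gave 53 (without C.NO3 repeat 1) to 724 (without C.NO3 repeat 3) at 2 hours, 32 (without C.KCl repeat 1) to 66 at 8 hours and 249 (without C.KCl repeat 1) to 322 after 2 days. For Sp.KCl against Sp.NO3 the counts were 23 (0 to 155), 39 (34 to 117) and 127 (116 to 403), and 12 to 16 (each sample left out gave a lower count), 29 to 37 and 80 to 128 (80 without Sp.NO3 or Sp.KCl repeat 1, 81 without Sp.NO3 repeat 2) without 1 sample, and for Sp.KCl against C.KCl 54 (1 to 311) at 2 hours, with 13 (without Sp.KCl repeat 2) to 124 (without Sp.KCl repeat 1), and 150 (91 to 408) after 2 days, where leaving out Sp.KCl repeat 2 or 3 gave 51 or 267. Nitrate sides gave up to 19 after 2 days by the methods' test, against 1. Of 42 runs of 1 left-out sample on the 7 called genes of the lists, 20 lost the call: 3 for AT4G36010 (C.NO3 repeats 1 and 3, C.KCl repeat 2), 4 for AT4G01700 (C.NO3 repeats 1 and 2, C.KCl repeats 2 and 3), 3 for ATG8B (C.NO3 repeat 1, C.KCl repeats 1 and 3), 1 for AT2G43610 (C.KCl repeat 1), 4 for JAL22 (repeats 1 and 2 of both groups) and 5 for AT2G19970 (all but Sp.KCl repeat 2), with adjusted p-values up to 0.296 by limma. AT5G35940 kept its call in each. AT4G36010 and AT4G01700 also lost it in the fit of 6 samples, AT4G01700 and AT2G19970 without the filter, and JAL22 by the methods' test.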
